A study of Mus musculus with 6 samples.

Results

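The Krüppel-like factors are transcription factors that bind GC-rich and CACCC sequences through a run of zinc fingers at their carboxyl end, and they share this type of DNA contact with the Sp factors. They are usually sorted by the proteins they recruit. Klf2, Klf4, Klf5, Klf6 and Klf7 are known mostly as activators, Klf3 recruits the corepressor CtBP, and Klf9, Klf10, Klf11 and Klf13 carry a motif that binds the corepressor Sin3A. In stratified epithelium Klf5 is known for the proliferating basal layer and Klf4 for differentiation, and several members are transcribed within a few hours of a stimulus. The mRNAs of these 10 genes were taken from the processed RNA-seq values by gene symbol. Each symbol had 1 entry, and the 10 belong to 25001 loci, of which 22601 carry a symbol.

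RNA was sequenced from 427.1.86 cells (427 cells), a mouse thymoma line, in 6 libraries with 1 library per condition. Wild-type 427 cells carrying the empty pSUPER vector received DMSO or 1 µM PMA, a phorbol ester that activates protein kinase C and induces shedding of epithin/PRSS14. Cells with an SPPL2b knockdown (SP2bKD) received DMSO or the same dose of PMA, and all 4 of these libraries were made after 2 h without serum and 2 h of treatment. SP2bKD cells transfected with a GFP vector alone, or with the GFP vector and Flag-N55, which encodes the intracellular domain of epithin/PRSS14 (EICD), were sorted for GFP the day after transfection and make up the other 2 libraries. The knockdown is given by the labels as an siRNA and by the study's methods as a stable shRNA in single-cell clones, of which clone 10 was transfected. The study used the knockdown cells, in which release of EICD is impaired, to separate effects of PMA from those of EICD. No replicate check was possible for any difference below, and every comparison is between 2 libraries.

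The values are FPKM, fragments per kilobase of exon scaled to library size, so levels can be set against each other between genes. Estimated from the smallest steps between values, the libraries held about 26300000 to 30300000 fragments. The gene targeted by the knockdown, Sppl2b, had an FPKM of 9.90 and 6.86 in 427 cells with DMSO and with PMA. It had 13.4 and 9.37 in the libraries labelled SP2bKD with the same treatments, and 11.4 and 13.2 with GFP and with GFP plus EICD. Its level in these libraries therefore did not mark the knockdown. The study measured SPPL2b mRNA in the knockdown clones by real-time PCR and reported less EICD in them after PMA. St14, which encodes epithin/PRSS14, was at 69.6 FPKM with GFP and 614.5 with GFP plus EICD, where the transfected EICD sequence is also counted. All 8 epithelial markers examined, among them Krt5, Krt14 and Epcam, reached 1 FPKM, with a summed level of 6647 to 15156 FPKM that was highest in the GFP library. The T cell markers summed to 0.0304 to 0.340 FPKM, with Cd3e, Cd3d, Cd4 and Thy1 at 0, so the thymoma line had the mRNA of epithelial cells. B cell and fibroblast markers summed to at most 0.0768 and 0.501 FPKM. Of the 4 macrophage markers, Csf1r and Cd68 reached 1 FPKM, the sum lay between 4.45 and 8.66 FPKM, and Adgre1 was at 0.

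The promoters of Klf4, Klf6, Klf2 and Klf11 are shown first, because these 4 genes were among those with the largest differences in the transfected cells or with PMA. Each is given 5′ to 3′ on the gene's strand, from RefSeq on GRCm38.p6, ending before the start of the gene in the deposited files. Klf4 is at chr4:55532476-55532725 (minus strand), Klf6 at chr13:5861239-5861488 (plus strand), Klf2 at chr8:72318812-72319032 (plus strand) and Klf11 at chr12:24651121-24651370 (plus strand). Capitals mark matches on either strand to the cyclic AMP response element (CRE) core TGACG, to the CCAAT box, to the E-box CACGTG and to the consensus of MEF2, the factor through which ERK5 signalling is known to switch on Klf2.
Klf4: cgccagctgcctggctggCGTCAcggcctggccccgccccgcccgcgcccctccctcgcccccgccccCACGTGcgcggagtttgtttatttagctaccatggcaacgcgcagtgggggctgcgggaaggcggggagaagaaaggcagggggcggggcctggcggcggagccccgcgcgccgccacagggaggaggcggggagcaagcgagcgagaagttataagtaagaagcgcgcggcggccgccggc
Klf6: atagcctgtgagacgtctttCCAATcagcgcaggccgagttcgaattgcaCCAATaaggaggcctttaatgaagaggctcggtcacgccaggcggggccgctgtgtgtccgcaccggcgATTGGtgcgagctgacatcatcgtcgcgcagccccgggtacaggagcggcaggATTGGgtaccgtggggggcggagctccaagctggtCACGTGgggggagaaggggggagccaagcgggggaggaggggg
Klf2: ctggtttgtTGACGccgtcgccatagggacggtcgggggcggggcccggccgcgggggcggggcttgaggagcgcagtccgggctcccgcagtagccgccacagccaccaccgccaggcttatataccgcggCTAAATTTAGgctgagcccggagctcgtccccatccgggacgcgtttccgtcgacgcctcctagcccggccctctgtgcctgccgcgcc
Klf11: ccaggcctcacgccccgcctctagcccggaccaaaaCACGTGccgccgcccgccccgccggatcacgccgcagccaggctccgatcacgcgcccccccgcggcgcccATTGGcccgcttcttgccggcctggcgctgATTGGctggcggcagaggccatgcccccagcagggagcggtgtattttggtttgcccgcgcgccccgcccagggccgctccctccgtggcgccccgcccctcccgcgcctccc

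Promoters were at hand for 8 of the 10 genes (Klf2, Klf3, Klf4, Klf6, Klf7, Klf9, Klf11 and Klf13). The windows of Klf7 and Klf9 and part of those of Klf3 and Klf2 lie inside the gene as the files delimit it. For this reason Klf9, which was more than 2-fold higher with EICD, is not among the promoters shown above. In the 250 bases before the RefSeq start the 8 windows held 59.2% to 78.4% G and C and 13 to 32 CpG pairs. The median over the 10546 windows of genes with 1 FPKM or more was 60.0% and 16 CpG. The promoters of Klf4 and Klf11, with 32 CpG each, exceeded 90.9% of those windows.

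The MEF2 consensus occurred in 1 member, Klf2, starting 118 bases before the start, and in 0.266% of the windows of expressed genes. The CCAAT box (either strand) was found in Klf6 with 4 matches, in Klf9 with 3 and in Klf11 and Klf13 with 2 each, that is in 4 of 8 windows beside 35.9% of expressed windows. The CRE core was in Klf2, Klf4, Klf9 and Klf13, against 27.3% of expressed windows, and the E-box in Klf4, Klf6 and Klf11, against 8.28%. The GC box GGGCGG, which both Sp and Krüppel-like factors can bind, was in every member window except that of Klf9 (7 of 8, against 59.3%). The CACCC box was in Klf2, Klf3, Klf7, Klf9 and Klf13 (5 of 8, against 57.1%). The AP-1 site TGACTCA, the TATAAA box and the CArG box of serum response factor had 0 matches in these windows, where 3.35%, 6.10% and 1.14% of expressed windows held one. Overlapping matches were counted separately, and a palindromic E-box once. These matches are letters in a window and not evidence of binding.

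**Figure D1:**
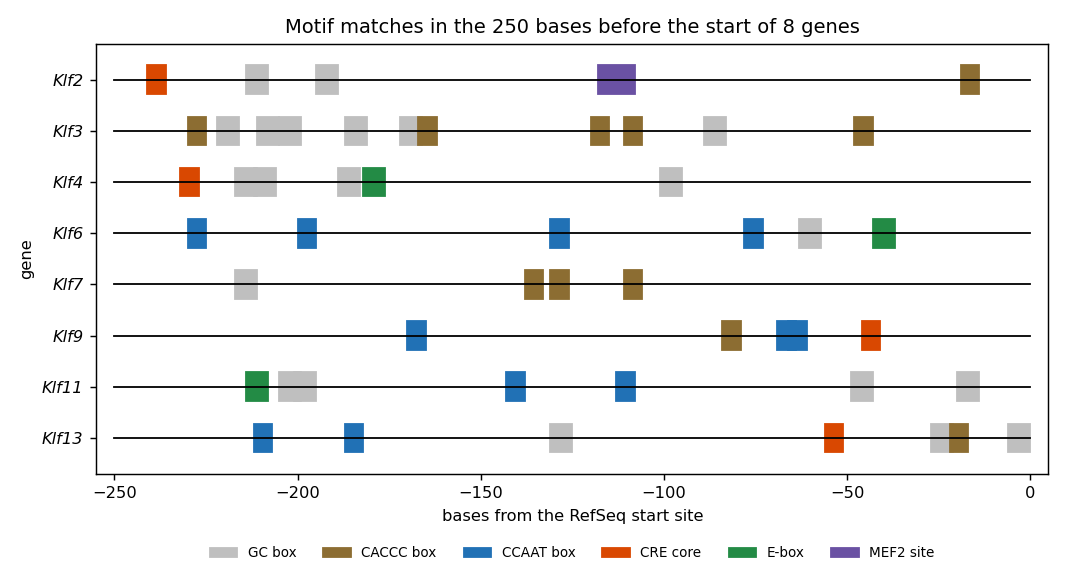
Motif matches in the 250 bases before the RefSeq start of 8 genes, with the distance from the start in bases on the horizontal axis, 1 line per gene and 1 colour per motif. Klf6 has 4 CCAAT boxes, Klf2 has the single MEF2 match, and Klf3 has 6 GC boxes and 5 CACCC boxes.

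The members also had few exons. Their longest coding transcripts in GENCODE M21 had 2 to 6 exons, with a median of 4. The median of 10193 genes with 1 FPKM or more was 9, and 34.6% of them had 6 or fewer, a limit equal to the highest number among the members. Their 3′ untranslated regions had a median length of 2719 bases, against 1180 over those genes. The pentamer ATTTA, the core of the AU-rich elements that mark many short-lived mRNAs, occurred 18 times in that region of Klf7, 8 times in Klf9 and 7 times in Klf3 and in Klf6. It occurred 4 times in Klf5, Klf10 and Klf11, 3 times in Klf13 and once in Klf2 and in Klf4. Per kilobase the median was 2.06 over the members and 1.37 over all these genes. The 18 of Klf7, in a region of 6266 bases, came to 2.87 per kilobase, above 78.0% of those genes.

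Klf3, Klf5, Klf4, Klf6 and Klf10 were the 5 most abundant members in all 6 libraries. In 427 cells with DMSO they lay between 25.9 and 40.7 FPKM, in the order given. Klf13 was at 11.7, Klf7 at 7.22, Klf11 at 3.71, Klf9 at 2.89 and Klf2 at 0.303 FPKM. The leading gene changed with the condition. It was Klf3 in both DMSO libraries, Klf4 with PMA in 427 cells and after GFP transfection, and Klf6 with PMA in SP2bKD cells and after transfection of GFP plus EICD, where Klf6 (122.3) and Klf4 (120.4) were nearly level. The 10 genes together came to 183.4 and 193.1 FPKM in 427 cells with DMSO and PMA, to 181.4 and 160.3 FPKM in the libraries labelled SP2bKD, to 366.9 FPKM with GFP and to 491.95 FPKM with GFP plus EICD. The sum was thus about the same in both lines with DMSO and highest in the transfected cells. Klf2 was the one member near the detection limit, for which upper estimates of the fragment number were 15.4, 15.4, 9.71, 3.66, 29.2 and 85.3, taking the libraries in the order above. The same upper estimates were 274 or more for every other member in each library.

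**Figure D2:**
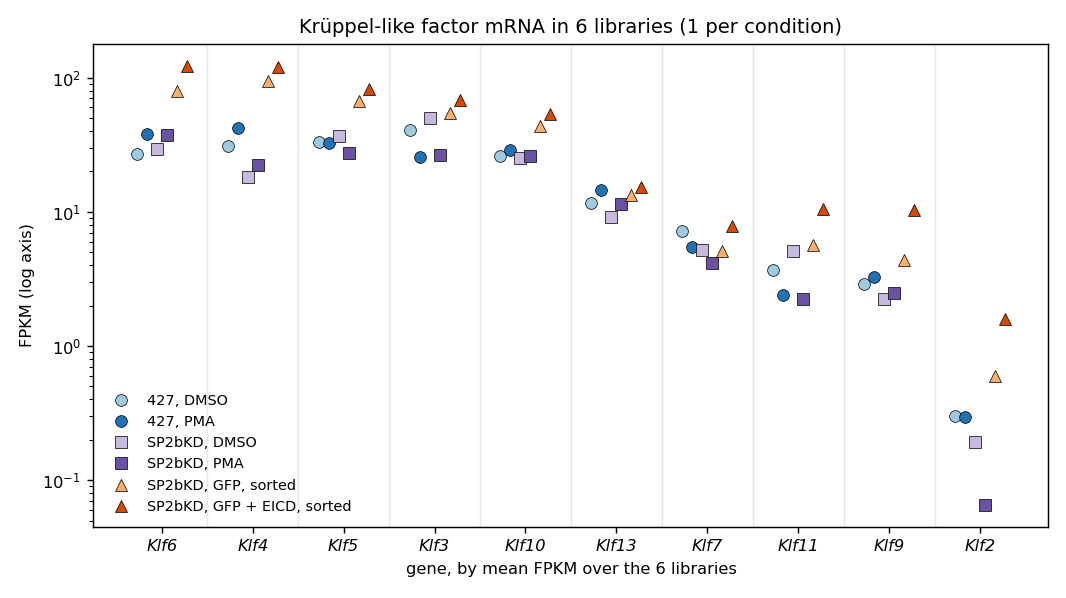
FPKM of the 10 genes (log axis) in the 6 libraries, 1 point per library, with genes ordered by their mean. In 8 genes both orange triangles, the transfected and sorted libraries, lie above all 4 other libraries, and Klf7 and Klf13 are the exceptions.

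The largest differences separated the transfected and sorted cells from the other cells. Klf4, Klf6 and Klf2 were more than 2-fold higher in the GFP library than in SP2bKD cells with DMSO. A ratio above 1 was found in 9 of the 10 members, beside 40.9% of 10687 loci. Klf7 was the exception, and it also turned above 1 when libraries were scaled to a common median. These libraries differ in transfection, GFP expression, sorting, serum withdrawal and DMSO, and these differences cannot be told apart. Of the 8 epithelial markers, the basal keratins Krt5 (10705 against 4246 FPKM) and Krt14 (3820 against 1785 FPKM) were also more than 2-fold higher with GFP and Krt8 (142.8 against 310.8 FPKM) was lower, and their part in the results was not tested.

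Klf4, which acts in epithelial differentiation and is one of the factors used to reprogram cells, lies at chr4:55527143-55532466 on the minus strand of GRCm38. It had 31.0 FPKM in 427 cells with DMSO and 41.9 with PMA. It had 18.0 and 22.5 in the libraries labelled SP2bKD, 93.9 with GFP and 120.4 with GFP plus EICD. Both transfected libraries were thus far above the other 4, which also differed by line. The log2 ratio of the GFP library to SP2bKD cells with DMSO was 2.38, a 5.20-fold higher level, with a 95% interval for counting error of 2.30 to 2.46. Ranked from the highest, this was number 80 of the 10687 loci that carry a symbol and reach 1 FPKM in either library. In bulk RNA, fewer cells of a type and less RNA per cell cannot be told apart.

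Klf6, an early response gene named for its binding to core promoter elements, had 26.9 and 38.1 FPKM in 427 cells with DMSO and PMA, 29.2 and 37.5 in SP2bKD cells, 79.1 with GFP and 122.3 with GFP plus EICD. Its lowest values were those with DMSO and its highest those after transfection. The log2 ratio of GFP to DMSO in SP2bKD cells was 1.43 (interval 1.38 to 1.49), or 2.70-fold. Klf2, a factor of quiescence and trafficking in T cells and of the response to flow in endothelium, had 0.303, 0.295, 0.194, 0.0655, 0.600 and 1.59 FPKM in the same order. Its ratio of GFP to DMSO was 2.99-fold, with a log2 of 1.58 and a wide interval of 0.50 to 2.78 because of the few fragments. With 1 added to both values the Klf2 ratio no longer reached 2-fold.

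The remaining members were within 2-fold in this comparison. Klf9, a factor induced by glucocorticoids and thyroid hormone, was 1.95-fold higher with GFP (log2 0.96, interval 0.75 to 1.18). Klf5, the basal-layer factor, had 66.5 FPKM with GFP and 82.3 with GFP plus EICD, above the 27.4 to 36.7 of the other 4 libraries, and was 1.81-fold higher with GFP. Klf10, induced early by transforming growth factor-beta, had 25.9 and 28.8 FPKM in 427 cells with DMSO and PMA, 25.1 and 26.2 in SP2bKD cells, 43.8 with GFP and 53.2 with GFP plus EICD. It was nearly level in the 4 untransfected libraries and 1.74-fold higher with GFP. Klf13, known as a regulator of Ccl5 in T cells, had 11.7, 14.6, 9.20, 11.4, 13.4 and 15.3 FPKM in the same order, so that the GFP library overlapped with the untransfected ones. Its ratio of GFP to DMSO was 1.46-fold. Klf11 (log2 0.14, interval -0.02 to 0.31) and Klf7 (log2 -0.03, interval -0.16 to 0.09) had intervals that included no difference, and Klf3 was 1.08-fold higher. The value of Klf7 was 0.05 when libraries were scaled to a common median.

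In all, 3 of the 10 members were more than 2-fold higher with GFP, and 0 were lower. Klf2 does not reach 1 FPKM in these libraries, so on the basis of the 10687 loci 2 of 9 members, Klf4 and Klf6, were higher, where 3.56% of the loci were, and 0 were lower, where 4.14% were. With libraries scaled to a common median Klf9 also passed 2-fold (log2 1.04). The median log2 ratio was 0.83 over the members and -0.08 over the loci. In 8 members both transfected libraries lay above all 4 others, against 14.4% of 11062 loci.

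EICD was then set against GFP alone within the transfected, sorted SP2bKD cells, the comparison the study made to see the direct effect of EICD. All 10 members were higher in the GFP plus EICD library, and 2 of them, Klf2 and Klf9, by more than 2-fold. This comparison uses the same GFP library as the one before, so a low value there would raise these ratios and lower the others. Of the epithelial markers 1 passed 2-fold, Krt8, which was lower with EICD (log2 -1.02), and its part in the results was not tested.

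Klf9 (chr19:23140815-23168187, plus strand) had 2.89 and 3.27 FPKM in 427 cells with DMSO and PMA, 2.26 and 2.47 in SP2bKD cells, 4.40 with GFP and 10.4 with GFP plus EICD. The GFP plus EICD library stood apart from the other 5, which spanned 2.26 to 4.40. The log2 ratio to GFP was 1.24 (interval 1.09 to 1.38), or 2.36-fold, at number 233 of 10682 loci. Klf2 was 2.67-fold higher with EICD (log2 1.42, interval 0.79 to 2.07), from an estimated 29.2 to 85.3 fragments or fewer. With 1 added to both values the ratio of Klf9 was still past 2-fold and that of Klf2 was not.

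Klf11 (chr12:24651371-24662774, plus strand), a member inducible by transforming growth factor-beta, had 3.71 and 2.39 FPKM in 427 cells with DMSO and PMA, 5.11 and 2.25 in SP2bKD cells, 5.65 with GFP and 10.5 with GFP plus EICD. It was lowest in both PMA libraries and highest with EICD. Its ratio to GFP of 1.85-fold (log2 0.89, interval 0.75 to 1.03) was near the 2-fold line, at number 482 among the loci. Klf7, known mainly from the developing nervous system, had 7.22, 5.48, 5.21, 4.13, 5.08 and 7.84 FPKM in the 6 libraries. With EICD it was 1.54-fold higher than with GFP (log2 0.63, interval 0.51 to 0.74).

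Klf6 was 1.55-fold higher with EICD (log2 0.63). The other members, Klf4, Klf3, Klf5, Klf10 and Klf13, had log2 ratios of 0.36, 0.32, 0.31, 0.28 and 0.19, and none of these 5 intervals included 0. Klf2 reached 1 FPKM only in the GFP plus EICD library. Without it 1 of 9 members, Klf9, was past 2-fold, beside 3.58% of 10682 loci that were higher by as much, and 0 members were lower by as much, beside 0.506% of loci. Over all loci the median log2 ratio was 0.07 and 58.3% were above 0, while over the members the median was 0.49. All 10 members stayed above 0 when libraries were scaled to the same upper quartile or to a common median. The other settings, of pseudocount and row choice, could not change a direction here. From SP2bKD cells with DMSO to the GFP plus EICD library, both steps together came to 7.85-fold for Klf2, 6.67-fold for Klf4, 4.58-fold for Klf9 and 4.18-fold for Klf6.

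**Figure D3:**
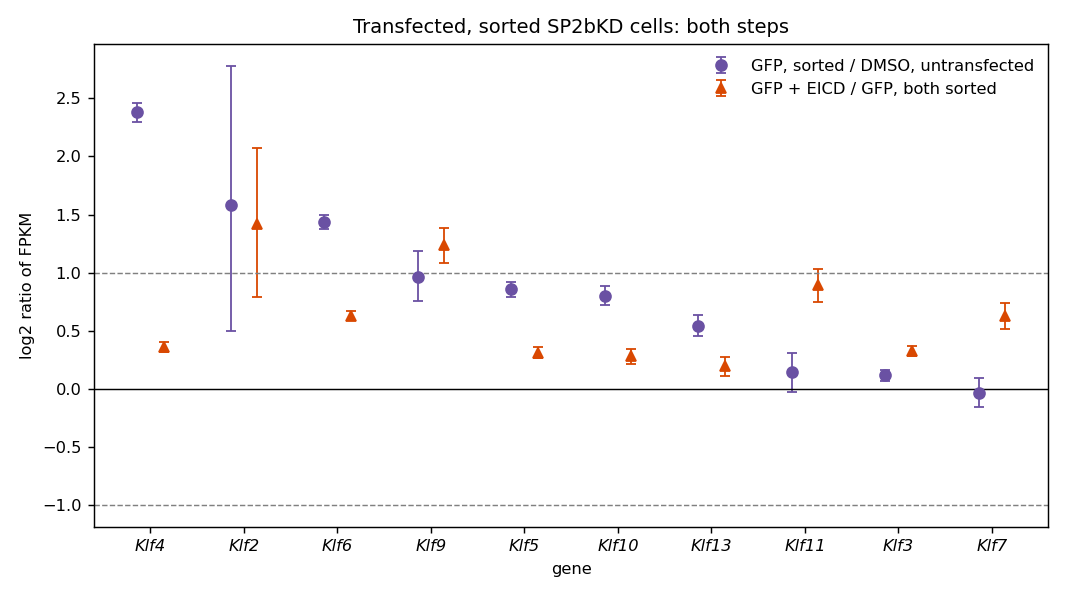
Log2 ratios of FPKM for the GFP library over SP2bKD cells with DMSO (circles) and for GFP plus EICD over GFP (triangles), with bars for the 95% counting interval and dashed lines at 2-fold. Klf4 and Klf6 differ mostly in the first step (2.38 and 1.43), whereas Klf11 and Klf7 differ mostly in the second (0.89 and 0.63).

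With PMA the differences were smaller, and the members divided by direction in the same way in both lines. Klf4, Klf6, Klf9, Klf10 and Klf13 were higher with PMA in 427 and in SP2bKD cells, and Klf2, Klf3, Klf5, Klf7 and Klf11 were lower in both, except that Klf2 and Klf5 in 427 cells, close to no difference at log2 -0.04 and -0.03, turned above 0 when libraries were scaled to a common median. The comparisons in the 2 lines share no library, and 81.4% of 10845 loci also had the same direction in both.

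Among the activators, Klf6 was 1.42-fold and Klf4 1.35-fold higher with PMA in 427 cells, and 1.28-fold and 1.25-fold higher in SP2bKD cells. Their log2 values of 0.50 and 0.43 in 427 cells had intervals of 0.44 to 0.57 and 0.36 to 0.51. Klf5 had 33.1 and 32.5 FPKM in 427 cells with DMSO and PMA, and 36.7 and 27.4 in SP2bKD cells. It was lower with PMA in the latter, with a log2 ratio of -0.42 (interval -0.50 to -0.35). Klf7 was lower in both, with log2 ratios of -0.40 and -0.33.

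Klf3 (chr5:64803388-64832956, plus strand), the repressor that works through CtBP, had 40.7 FPKM in 427 cells with DMSO, 25.7 with PMA, 50.3 in SP2bKD cells with DMSO, 26.5 with PMA, 54.5 with GFP and 68.1 with GFP plus EICD. Both PMA libraries were well below the other 4. The log2 ratios of PMA to DMSO were -0.66 (interval -0.72 to -0.60) in 427 cells and -0.93 (interval -0.98 to -0.87) in SP2bKD cells, so Klf3 was 1.90-fold lower in the latter. Klf11 was 1.55-fold lower in 427 cells (log2 -0.63, interval -0.86 to -0.41) and 2.26-fold lower in SP2bKD cells (log2 -1.18, interval -1.39 to -0.97). Of the Sin3A-binding members, Klf11 was thus lower, while Klf13 (log2 0.32 and 0.30) was higher in both lines. Klf10 had log2 ratios of 0.16 and 0.06, and Klf9 had 0.18 and 0.13. Of these, the intervals of Klf9 in both lines and of Klf10 in SP2bKD cells included 0.

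In 427 cells 0 members were more than 2-fold higher or lower with PMA, where 3.91% of 10643 loci were higher and 4.67% lower. In SP2bKD cells 2 members were lower, Klf11 and Klf2. Of the 9 members that reach 1 FPKM there, 0 were higher (3.51% of 10624 loci) and 1 was lower, Klf11 (5.69% of loci). The Klf2 value, log2 -1.44, had an interval of -3.61 to 0.31, which included no difference. The median log2 ratio over the loci was -0.12 in 427 cells and -0.15 in SP2bKD cells, and that of the members 0.07 and -0.14.

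For 9 of the 10 members the PMA ratio of 427 cells exceeded that of SP2bKD cells, with Klf7 as the exception. With scaling to a common median it was 8 of 10, and with scaling to the same upper quartile 7 of 10, as Klf13 and, in the latter, Klf9 changed side. No test of this difference was possible. The difference of the log2 ratios was 0.55 for Klf11, 0.40 for Klf5, 0.26 for Klf3 and 0.14 for Klf6. It was 1.40 for Klf2, where the counts are low, and between -0.07 and 0.12 for the other 5. Among 9934 loci with 1 FPKM or more in the 4 libraries, the median difference was -0.0003 and the 5th and 95th percentiles were -0.42 and 0.52. Klf11 lay just outside this range, and Klf5 and Klf3 within it.

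**Figure D4:**
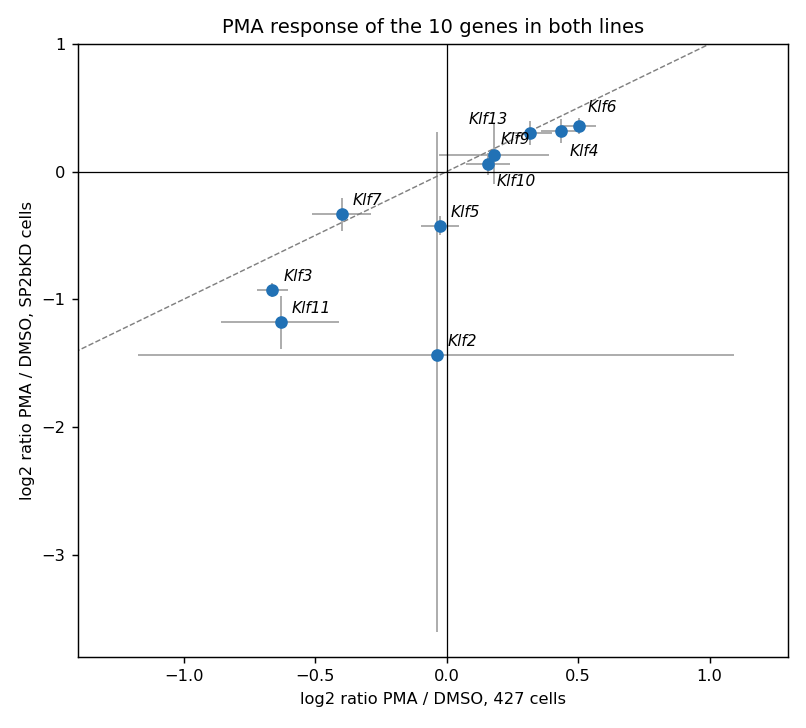
Log2 ratio of PMA to DMSO in 427 cells (horizontal) and in SP2bKD cells (vertical), 1 point per gene with 95% counting intervals, and a dashed line where both are equal. Klf3 and Klf11 lie lowest among the well-measured genes, at -0.66 and -0.63 in 427 cells and at -0.93 and -1.18 in SP2bKD cells, and Klf2 has the widest intervals.

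**Figure D5:**
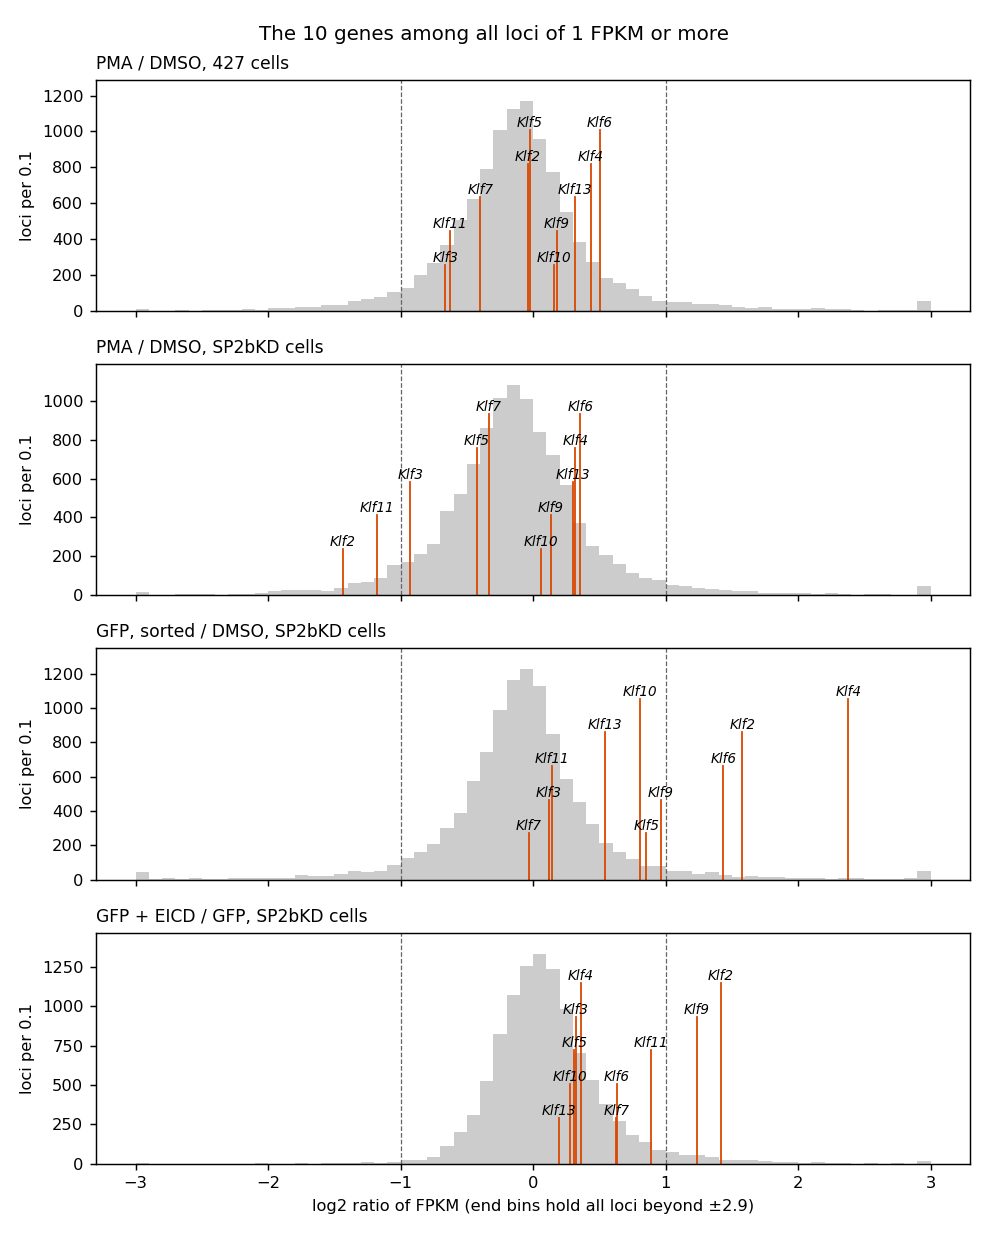
Distribution of log2 ratios over loci with a symbol and 1 FPKM or more in either library (grey, loci per bin of 0.1) in 4 comparisons, with the 10 genes as vertical lines, whose height has no meaning, and dashed lines at 2-fold. The genes spread around 0 with PMA, reach 2.38 for Klf4 with GFP transfection and lie above 0 with EICD, and Klf2 is drawn also where it is under 1 FPKM.

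The lines themselves differed most clearly in Klf4. In the libraries labelled SP2bKD Klf4 was 1.72-fold lower than in 427 cells with DMSO (log2 -0.78, interval -0.87 to -0.69) and 1.86-fold lower with PMA (log2 -0.90, interval -0.98 to -0.82). These 2 comparisons share no library. By rank from the lowest, Klf4 was number 444 of 10706 loci and number 342 of 10518. Klf7 (log2 -0.47 and -0.41), Klf9 (-0.36 and -0.40) and Klf13 (-0.35 and -0.36) were also lower in both, with intervals below 0. Klf11 was 1.38-fold higher with DMSO (log2 0.46) and at -0.08 with PMA. Klf3 was 1.24-fold higher with DMSO and at 0.04 with PMA. In all, 7 of the 10 members had the same direction in both comparisons, next to 75.4% of 10845 loci. With DMSO 0 members passed 2-fold in either direction (3.11% of loci higher, 2.76% lower), and with PMA 0 of the 9 members that reach 1 FPKM were higher (2.19% of loci) or lower (2.75%). Klf2, under 1 FPKM in both libraries, was lower with log2 -2.02 and an interval of -4.05 to -0.35. The knockdown cannot be told apart from the clone or other differences between the lines, since knockdown and line go together. Each line also has 1 library per treatment.

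Of the other 7 genes of the family, Klf16 and Klf12 reached 1 FPKM. Klf16, a Sin3A-binding member, lay between 37.1 and 55.9 FPKM and was lowest in the GFP plus EICD library, where its direction was opposite to that of the 10 members. Its locus carries the number of an assembled locus in place of an Ensembl gene number. Klf12, another CtBP-binding repressor, lay between 1.64 and 3.86 FPKM and was also slightly lower with EICD than with GFP (log2 -0.13). Klf1, Klf8 and Klf15 stayed under 1 FPKM in every library, and Klf14 and Klf17 were listed at 0. Of the 9 Sp genes, 5 reached 1 FPKM (Sp1, Sp2, Sp3, Sp4 and Sp8), and 0 of these differed more than 2-fold in any of the 6 comparisons. Over all loci 0.506% to 5.69% did so in each direction, by comparison. Sp1, the founding member of the Sp group, ran from 30.0 to 38.2 FPKM and Sp3 from 19.5 to 31.2. The median log2 ratio over the 5 Sp genes was -0.14 with GFP transfection and -0.01 with EICD.

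Among partners and regulators of the family, few genes passed 2-fold. Few are to be expected in lists this short, since 0.506% to 5.69% of all loci passed it in each direction, by comparison. Of the 11 corepressors and coactivators with 1 FPKM or more, such as Ctbp1 and Sin3a, 1 passed 2-fold in any comparison. This was the acetyltransferase gene Kat2b, lower with PMA in SP2bKD cells (log2 -1.11), as were 5.69% of all loci. Of 6 genes for ubiquitin ligase parts, 1 passed 2-fold, Fbxo32, lower in the GFP library than with DMSO (log2 -1.25), as were 4.14% of all loci. None of the 6 measured genes of the ERK5-MEF2 pathway passed 2-fold in any comparison, and their median log2 ratio was 0.00 with GFP transfection and 0.28 with EICD.

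Among 16 genes known as targets of Krüppel-like factors in other cells, 11 reached 1 FPKM, and 2 were higher and 2 lower with PMA in each line, where over all loci 3.91% were higher and 4.67% lower in 427 cells and 3.51% and 5.69% in SP2bKD cells. Plaur, the urokinase receptor, was higher with log2 ratios of 3.27 and 3.13, and Ccnd1, cyclin D1, with 2.04 and 2.94. The lower ones were Txnip, an inhibitor of thioredoxin, with -2.45 and -1.80, and Cdkn1b, a cyclin-dependent kinase inhibitor, with -1.17 and -1.24. With EICD 1 of the 11 was higher (3.58% of all loci), Txnip, from 32.2 to 107.7 FPKM (log2 1.74). With GFP transfection 2 were higher (3.56% of all loci), Ccnd1 (1.75) and Pdgfa (1.02), and 0 were lower (4.14%). Between the lines 1 was higher in SP2bKD cells with DMSO, Itgb7 (1.00), beside 3.11% of all loci, while with PMA, beside 2.19% of loci higher and 2.75% lower, Txnip was higher (1.60) and Cdkn1a (-1.30) and Thbd (78.8 against 39.3 FPKM) were lower. Of these 8 genes, all named after their values were seen, the rule for naming would have taken at most 4. The direct link of these genes to the members was not tested.

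For the 3 members with the widest range over the libraries, the loci of most similar profile were sought among 9832 loci with 1 FPKM or more throughout, by the root mean square difference of centred log2 values over the 6 libraries. Nearest to Klf11 were Gnb5 (0.11), Dsg2 (0.13) and Tifa (0.15). Dsg2, a desmosomal cadherin, had 12.8, 7.15, 14.3, 6.80, 19.5 and 29.0 FPKM, which is low with PMA and high with EICD like Klf11. Among the 3 nearest to Klf4 were Tmc7 (0.24) and Serpina3i (0.28), and nearest to Klf2, less closely, were Dusp1 (0.52), Ppp1r15a (0.54) and Cyp26b1 (0.55). Within the family the most similar pair was Klf5 and Klf10 (0.22), followed by Klf3 and Klf11 (0.28), and the least similar was Klf2 and Klf13 (1.20).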

How the data were processed

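Per the labels, total RNA was enriched for mRNA, and 100-base paired-end libraries were sequenced on a HiSeq 2500. Per the study's methods and the submitters' processing notes, the authors aligned reads with TopHat2 2.1.1 to GRCm38 and deposited FPKM values from Cufflinks 2.1.1, normalized with Cuffdiff 2.1.1, 1 value per locus and library, on gene models with newly assembled isoforms. STAR 2.4.0b is also listed, with no role. A locus whose model overlaps a neighbour can hold fragments of both, and strand use is not given in the sources used here.

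From these values log2 ratios were computed (SciPy 1.17.1, pandas 2.3.3 and NumPy 2.4.6 under Python 3.11.15) and plotted (matplotlib 3.10.9). An amount of 0.01 FPKM was added to both libraries, and for EICD to the EICD library only, for loci with 0.01 FPKM or more with GFP. A difference was called past 2-fold, and shares of loci use those with a symbol that reach 1 FPKM in either library. With 1 library per condition no test was made. Depth was estimated from the densest ratio of values under 0.1 FPKM between libraries and from single-transcript genes of over 2500 bases. Estimated fragments use the longest transcript and are upper values, so the exact binomial 95% intervals are too narrow, and they cover counting error only. Functions were checked on simulated libraries.

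The genes named are the 10 members, related genes of the Klf and Sp groups with 1 FPKM or more, genes of lists for partners, regulators and targets that passed 2-fold (at most 4 a list, exceeded for the targets), and the 3 nearest profiles of the 3 members of widest range. Of these profiles, 1 is not reported here. Members, lists and motifs were chosen with earlier results of these data known. The alternatives were other pseudocounts, scalings, filters and the sum of rows with a symbol.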

Additional observations from a re-analysis of the deposited data

Results flagged for a closer look

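Klf5 was 1.11-fold higher in the library labelled SP2bKD than in 427 cells with DMSO (log2 0.15) and lower with PMA (log2 -0.25), so that the same comparison had opposite directions with the 2 treatments, with both counting intervals away from 0. The difference between the treatments was not tested, since each rests on 1 library per line.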

How the results depend on the processing

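No paired analysis was possible because each condition has 1 library. For the same reason no library could be left out. The number of members past 2-fold depended on the amount added in 4 comparisons. With PMA in SP2bKD cells the 2 lower members became 1 with 0.1 added to both libraries and 0 with 1 added. With 1 added, the 1 lower member in SP2bKD against 427 cells with PMA became 0, and the 2 higher members with EICD became 1. In the GFP comparison the 3 higher members became 2 with 1 added and 4, with Klf9, when libraries were scaled to a common median. With PMA in 427 cells and between the lines with DMSO the counts were 0 under every alternative run. Of 320 recomputed log2 ratios of members, 297 stayed within the counting interval, 23 moved out of it, and 3 changed sign, all when libraries were scaled to a common median and all from values between -0.04 and -0.03 (Klf2 and Klf5 with PMA in 427 cells, Klf7 with GFP). Summing all rows with a symbol could change no member, since each had 1 row, and these values are counted among the 297.

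Shares of all loci past 2-fold moved more, because low values enter or leave. For higher loci the range over the alternatives was 2.87% to 6.26% for PMA in 427 cells, 2.75% to 5.94% for PMA in SP2bKD cells, 1.60% to 8.85% for EICD and 2.29% to 8.63% for GFP. For lower loci it was 1.51% to 8.74%, 2.58% to 9.88%, 0.178% to 5.10% and 1.61% to 8.26%. Between the lines the shares ran from 1.52% to 6.79% higher and 0.995% to 7.34% lower with DMSO, and from 0.714% to 6.00% and 1.15% to 7.27% with PMA.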
